A study of Homo sapiens with 12 samples.

Results

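The genes described here are 46 genes of the lysosome and of autophagy, taken by symbol for their known role. The list was chosen with earlier results of these data known. All 46 were found among the 60603 genes of the count table. Of these, 45 had enough reads to be tested, along with 17775 genes in all, and CTSK, the cathepsin of bone-resorbing osteoclasts, did not, with at most 3 counts in every library. The RNA came from T24 cells, a human bladder carcinoma line, in a series on AlissAID, an inducible system for degrading untagged endogenous proteins. The 12 libraries form 4 groups of 3. They are T24 cells with the genotype label WT and no treatment, WT cells with 5-Ad-IAA (the inducer, derived from the plant hormone auxin), cells with the genotype label NS1 and no treatment, and NS1 cells with 5-Ad-IAA. The labels do not spell out NS1, which is also the name of a monobody (a small engineered binding protein) against RAS. Whether that protein is meant, what the WT cells carry of the degradation system, whether the NS1 line is 1 clone, and the dose and duration of treatment are not stated in the labels used here. The labels also do not say whether replicates were separate cultures, so p-values measure the spread between these libraries, which may be technical.

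Lysosomes are acidic organelles in which hydrolases digest proteins, lipids, glycans and nucleic acids delivered by endocytosis or by autophagy. A proton pump, the vacuolar ATPase (V-ATPase), keeps the lumen acidic, and heavily glycosylated proteins such as LAMP1 and LAMP2 line the membrane. In autophagy, the ULK1 and Beclin 1 complexes start a double membrane, the ATG conjugation machinery attaches proteins of the ATG8 family (LC3 and GABARAP) to it, and receptors such as SQSTM1 (p62) bring cargo. Many of these genes are known targets of TFEB and TFE3, transcription factors that bind an E-box, CACGTG, within a longer element called CLEAR. Active mTORC1 holds TFEB and TFE3 in the cytoplasm, in part through the Rag GTPases RRAGC and RRAGD and the FLCN complex.

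The E-box is visible in the promoters of several members. The sequences below are from RefSeq (GRCh38.p14), 5′ to 3′ on the strand of the gene, with CACGTG, or TCACGTGA where the longer form is present, in capitals. These 4 genes were chosen after their values were seen. They are from 8 members that hold the motif and were higher with 5-Ad-IAA in NS1 cells under the paired fit described further on. The choice includes CTSD, which rose most among the 8, and leaves out ATP6V0D1, which holds the longer form. The base before the start site is -1. For LAMP1 (chr13:113296989-113297238, plus strand) and GAA (chr17:80101331-80101580, plus strand) the whole 250 bases upstream are shown, and the capitals at the end of the LAMP1 sequence open a motif that runs past the start site. For CTSA (chr20:45891290-45891319, plus strand) and CTSD (chr11:1763957-1763986, minus strand) 30 bases around the motifs are shown.
LAMP1: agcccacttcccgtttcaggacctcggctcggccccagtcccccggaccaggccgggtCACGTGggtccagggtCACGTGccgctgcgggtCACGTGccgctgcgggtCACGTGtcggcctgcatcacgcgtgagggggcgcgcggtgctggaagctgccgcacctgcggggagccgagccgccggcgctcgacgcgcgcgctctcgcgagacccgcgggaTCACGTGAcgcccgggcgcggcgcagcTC
GAA: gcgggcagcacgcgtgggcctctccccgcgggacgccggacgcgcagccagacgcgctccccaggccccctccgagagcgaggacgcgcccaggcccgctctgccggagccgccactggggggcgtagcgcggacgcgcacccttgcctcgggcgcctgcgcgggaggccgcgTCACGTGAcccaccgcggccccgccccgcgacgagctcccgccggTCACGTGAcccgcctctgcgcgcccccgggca
CTSA: tgtCACGTGgcgccggagtTCACGTGActc
CTSD: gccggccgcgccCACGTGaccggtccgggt

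A RefSeq promoter window of 300 bases (250 before to 50 after the start) was found for 34 of the 46 members. CACGTG, which reads the same on both strands, was in 9 of the 34 windows (26.5%), against 7.43% of all 27305 promoters. The longer TCACGTGA, which contains CACGTG, was in 5 of 34 (14.7%), against 1.04% of all promoters. The 5 were LAMP1, CTSA, GAA, MCOLN1 and ATP6V0D1. The 9 genes with CACGTG were LAMP1 (6 copies), CTSA, CTSF, GAA and MCOLN1 (2 copies each), and CTSD, CD63, NEU1 and ATP6V0D1 (1 copy each). CTSH and GABARAP had none in this window. These matches describe letters in a window and not binding. Many members are known targets of factors that bind this motif, so the choice of genes itself favours a high share. The comparison was with all promoters and not with those of the genes tested.

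The libraries held 10593934 to 20266996 counts each, and mitochondrial genes took 0.808% to 2.84% of them. Replicate 1 was the deepest library of every group and stood apart from the other replicates in many genes. For example, CTSB, a cysteine protease, had 435 normalised CPM (counts scaled to a common library total) in the untreated WT library of replicate 1 and 826 and 843 in the others. Libraries with the same replicate number deviated together within a line, most clearly for replicate 1, so each inducer effect is also given from a fit that pairs the numbers (a replicate block within each line). Of 14 epithelial and urothelial markers, the keratins KRT7, KRT8, KRT18 and KRT19 were abundant, EPCAM was at 0.945 to 3.03 CPM in the group means, CDH1 had at most 2 counts in any library, and KRT5, TP63 and UPK3A were at 0 in every library. Of 10 leukocyte and macrophage markers, CD14 was at 0.723 to 1.88 CPM in the group means, PTPRC, the common leukocyte marker, was at 0.0568 CPM or less, and ITGAM and MS4A1 were at 0 in every library.

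Within the members, levels spanned from CTSD to CTSK. On the scale of CPM per kilobase of exon, averaged over the 12 libraries, CTSD (an aspartic protease) was at 255, CD63 (a tetraspanin of late endosomes and lysosomes) at 231, PSAP (the precursor of the saposins, which help lipid hydrolases) at 181 and CTSZ at 172. SQSTM1 was at 92.3, LAMP1 at 71.9, GABARAP at 51.1 and MAP1LC3B at 22.5. TFE3 was at 20.9, whereas TFEB was at 0.418, so TFE3 was the more abundant transcript of these factors. The 46 members together made up 0.464% to 0.885% of all counts in a library.

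With 5-Ad-IAA, lysosome transcripts of NS1 cells were higher, led by the proteases CTSD and CTSH and by the ATG8 protein gene GABARAP. The summed level of the 46 members was 6345 ± 845 CPM in untreated NS1 cells and 8663 ± 1110 CPM in treated NS1 cells (SD, n = 3), and the lowest treated library (7397) lay above the highest untreated one (6873). In WT cells the sums were 5795 ± 860 without and 5728 ± 1106 with 5-Ad-IAA (SD, n = 3). Abundant genes weigh most in such sums. In NS1 cells the cathepsins went from 2073 to 3093 CPM, and the ATG8 family with SQSTM1 from 965 to 1477. The V-ATPase list went from 492 to 541 CPM and initiation and conjugation from 206 to 226. TFEB, TFE3 and their regulators went from 129 to 144 CPM. In bulk RNA, fewer cells of a kind and less RNA per cell cannot be told apart. Without pairing, edgeR called 3 of 45 members (CTSD, CTSH and GABARAP, all higher), which is 6.67% against a background of 6.15% of all genes called in either direction, 2.76% higher and 3.39% lower. With the replicate block within each line, 25 of 45 were called, 24 of them higher (53.3%, background 13.0%) and 1 lower (2.22%, background 12.8%). The share of all genes called was then 25.9%. Without replicate 1 the block called 10 members (22.2%), against 10.3% of all genes. The median log2 fold change of the 45 members was 0.24, against 0.0055 for all genes, and 36 of the 45 had a positive sign. All 3 pairs of the same number were higher for 29 members (64.4%, background 29.0%) and lower for 2 (4.44%, background 28.6%).

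**Figure D1:**
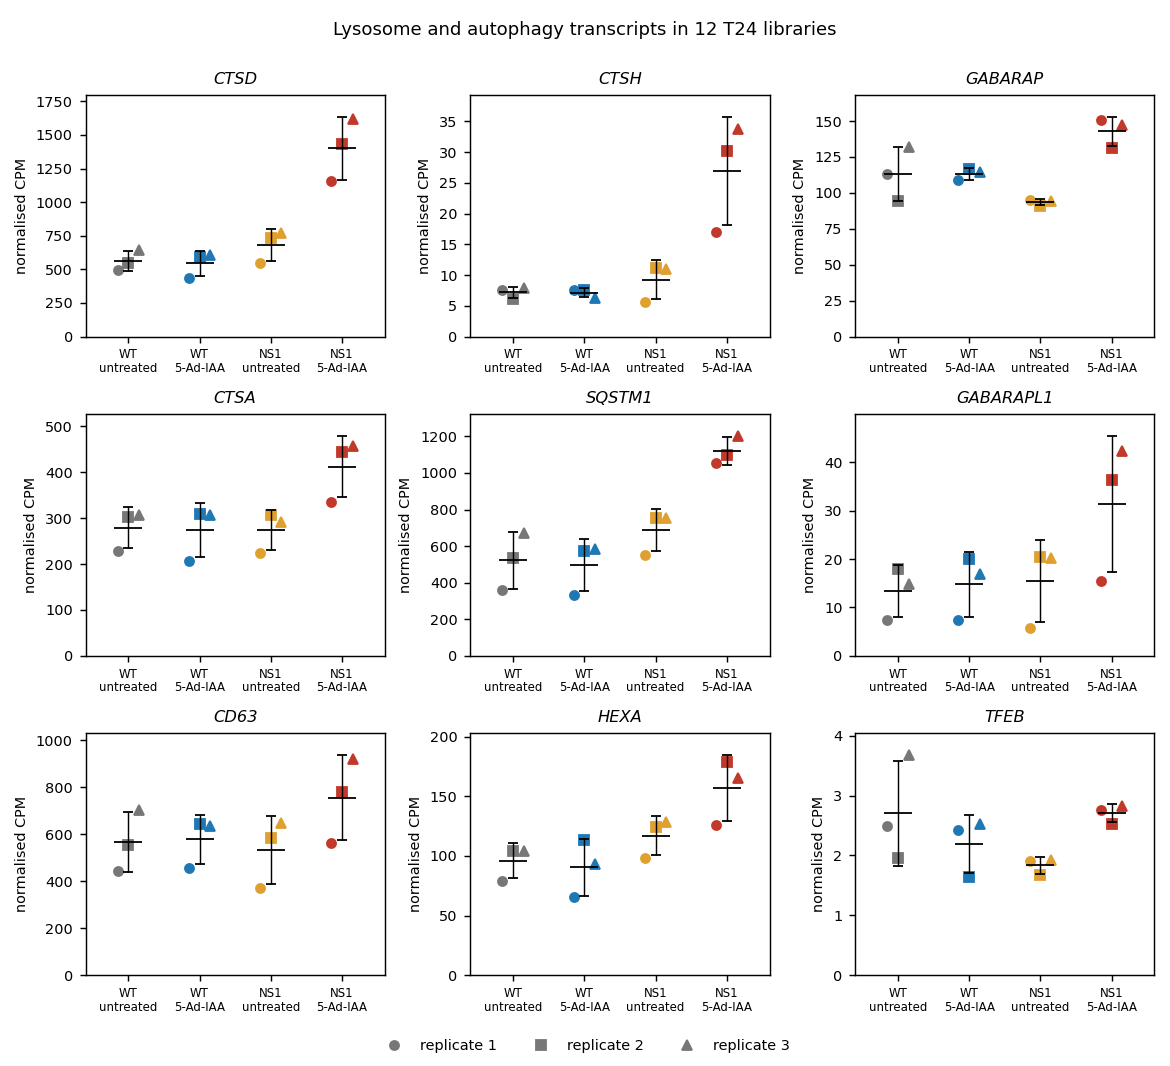
Normalised CPM (vertical axes, linear from 0) of 9 members in each of the 12 libraries, by line and treatment, with a symbol for each replicate number, the group mean as a bar and the SD as a whisker. For CTSD the treated NS1 libraries lie between 1154 and 1619 CPM and all the others between 435 and 768 CPM.

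CTSD had 545, 734 and 768 CPM in the untreated NS1 libraries and 1154, 1436 and 1619 CPM in the treated ones. In WT cells it had 493, 547 and 646 CPM untreated and 435, 593 and 604 CPM treated. Every treated NS1 library lay above the 9 others, and the WT groups overlapped. The log2 fold change in NS1 cells was 1.04 (SE 0.18, adjusted p = 0.00658 without the block, 4.97e-07 with it). CTSD lies on chromosome 11, and reads could be shared with a neighbour: ENSG00000250644, a protein-coding gene on the same strand with overlapping exons, held 101292 counts beside 133430 for CTSD and changed by 1.04 on the log2 scale.

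CTSH, a cysteine protease that acts as an aminopeptidase, had 5.68, 11.2 and 10.96 CPM in untreated NS1 libraries and 16.9, 30.2 and 33.7 CPM in treated ones. Its WT libraries ran from 6.15 to 7.93 CPM untreated and from 6.30 to 7.64 CPM treated. Treated NS1 cells stood above every other library. The log2 fold change was 1.54 (SE 0.27, adjusted p = 0.00717, 3.61e-07 with the block). The gene lies at chr15:78921058-78949574 (GRCh38, GENCODE 29).

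GABARAP had 95.3, 90.9 and 94.4 CPM in untreated NS1 cells and 150, 131 and 147 CPM in treated ones. In WT cells it had 113, 94.6 and 132 CPM untreated and 109, 116 and 114 CPM treated. The treated and untreated NS1 libraries did not overlap, and the untreated NS1 libraries lay near the lowest untreated WT library. The log2 fold change in NS1 cells was 0.61 (SE 0.12, adjusted p = 0.00949, 0.000117 with the block). GABARAP shares exon sequence with ENSG00000262526, a protein-coding gene on the same strand, which held 21034 counts beside 20123 and changed by 0.53.

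Leaving out any 1 of the 6 NS1 libraries kept the calls of these 3 genes. They were not called without replicate 2 (adjusted p 0.191 for CTSD, 0.186 for CTSH and 0.182 for GABARAP) or without replicate 3 (0.191, 0.2 and 0.194), fits in which no gene of the 18070 and 18186 tested was called although 2047 and 2048 had an unadjusted p under 0.05. Their log2 fold changes in those fits were 1.08 and 1.03 for CTSD, 1.62 and 1.49 for CTSH, and 0.65 and 0.61 for GABARAP.

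The other members are given by role and were singled out after their values were seen. Their calls are from the paired fit, and their log2 fold changes from the fit without the block, in which none of them was called. LAMP1, CTSZ, GLB1, ATP6V0D1, ATP6AP1, BECN1 and FNIP2 were called in this paired fit alone among 10 alternatives. Of the 6 fits that left out 1 NS1 library, all without the block, CTSA was called in 1 and GAA in 2. Every other member singled out here was called in none of those 6 fits. Among 5 lysosome membrane genes, LAMP1, LAMP2 and CD63 rose (log2 fold changes 0.24, 0.31 and 0.50, adjusted p = 0.256, 0.104 and 0.251 without the block and 0.0208, 0.00613 and 0.000284 with it), and NPC1, the cholesterol exporter, and MCOLN1, a calcium channel, were at -0.12 and 0.17 and were not called. CD63 had 372, 584 and 647 CPM in untreated and 562, 781 and 922 CPM in treated NS1 cells. The groups overlapped, and the pairs of the same number rose by 0.59, 0.42 and 0.51.

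Of 8 cathepsins tested, CTSA, CTSD, CTSF, CTSH and CTSZ rose and CTSL fell. CTSA, a carboxypeptidase that also protects the sialidase NEU1, had 224, 307 and 291 CPM in untreated and 335, 443 and 458 CPM in treated NS1 cells, which did not overlap. Its log2 fold change was 0.59 (SE 0.19, adjusted p = 0.0818, 2.48e-05 with the block). CTSL, a cysteine endopeptidase, was at -0.23 (adjusted p = 0.339, 0.046 with the block). CTSB and CTSS were at 0.17 and 0.53 and were not called.

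Of 9 other hydrolases and lumen proteins, HEXA, GAA, GLB1, NEU1, PSAP and NPC2 rose, with log2 fold changes between 0.27 (GLB1, beta-galactosidase) and 0.62 (GAA, which digests glycogen). GAA had 5.49, 8.43 and 6.64 CPM in untreated and 9.15, 11.1 and 11.4 CPM in treated NS1 cells. GLA and GUSB, further glycosidases, were at -0.15 and -0.16, and LIPA, the acid lipase, at 0.058, and these 3 were not called. LIPA overlaps IFIT2, an interferon-induced gene on the other strand. In the V-ATPase, ATP6V0D1 and the accessory subunit ATP6AP1 rose by 0.23 and 0.21, while ATP6V1A, ATP6V1B2 and ATP6V1H of the catalytic sector lay between -0.034 and 0.063 and were not called.

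Among the ATG8 family and SQSTM1, GABARAP, GABARAPL1 and SQSTM1 rose, and MAP1LC3A, MAP1LC3B and GABARAPL2 were not called (0.42, 0.15 and -0.052). SQSTM1 had 553, 753 and 752 CPM in untreated and 1055, 1101 and 1203 CPM in treated NS1 cells, which did not overlap. Its change was 0.71 on the log2 scale (SE 0.23, adjusted p = 0.0944 without and 2.93e-05 with the block). GABARAPL1 had 5.80, 20.4 and 20.3 CPM in untreated and 15.5, 36.3 and 42.3 CPM in treated NS1 cells. Replicate 1 was the lowest in all 4 groups, so the groups overlapped and the log2 fold change of 1.02 had an SE of 0.50 (adjusted p = 0.269), while the pairs rose by 1.40, 0.83 and 1.05 (adjusted p = 6.19e-06 with the block).

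Of 7 genes for initiation and conjugation, ULK1, BECN1 and WIPI1, which binds the phosphoinositide of the forming membrane, rose by 0.35, 0.22 and 0.46. The conjugation genes ATG5, ATG7 and ATG12 lay between -0.025 and 0.14 and UVRAG at -0.086, and none of the 4 was called. Of TFEB, TFE3 and their regulators, FNIP2 and FLCN, partners in a complex that acts on the Rag GTPases, rose by 0.31 and 0.38. TFEB was not called in either fit and had 1.91, 1.67 and 1.92 CPM in untreated and 2.76, 2.53 and 2.82 CPM in treated NS1 cells, which did not overlap (log2 fold change 0.56, adjusted p = 0.236, 0.065 with the block). TFE3 was at 0.080 and RRAGD at 0.15. Several of these genes overlap others whose reads could be shared, since the strand setting is not given. SQSTM1 (117531 counts over the libraries) overlaps MRNIP (47639 counts), CTSA (51931) overlaps the antisense gene ENSG00000271984 (10181), HEXA (19199) overlaps ENSG00000260729 (9307), BECN1 (9583) overlaps PSME3 (27462), WIPI1 (3001) overlaps ENSG00000267009 (7804) and MCOLN1 (2591) overlaps PNPLA6 (27212).

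**Figure D2:**
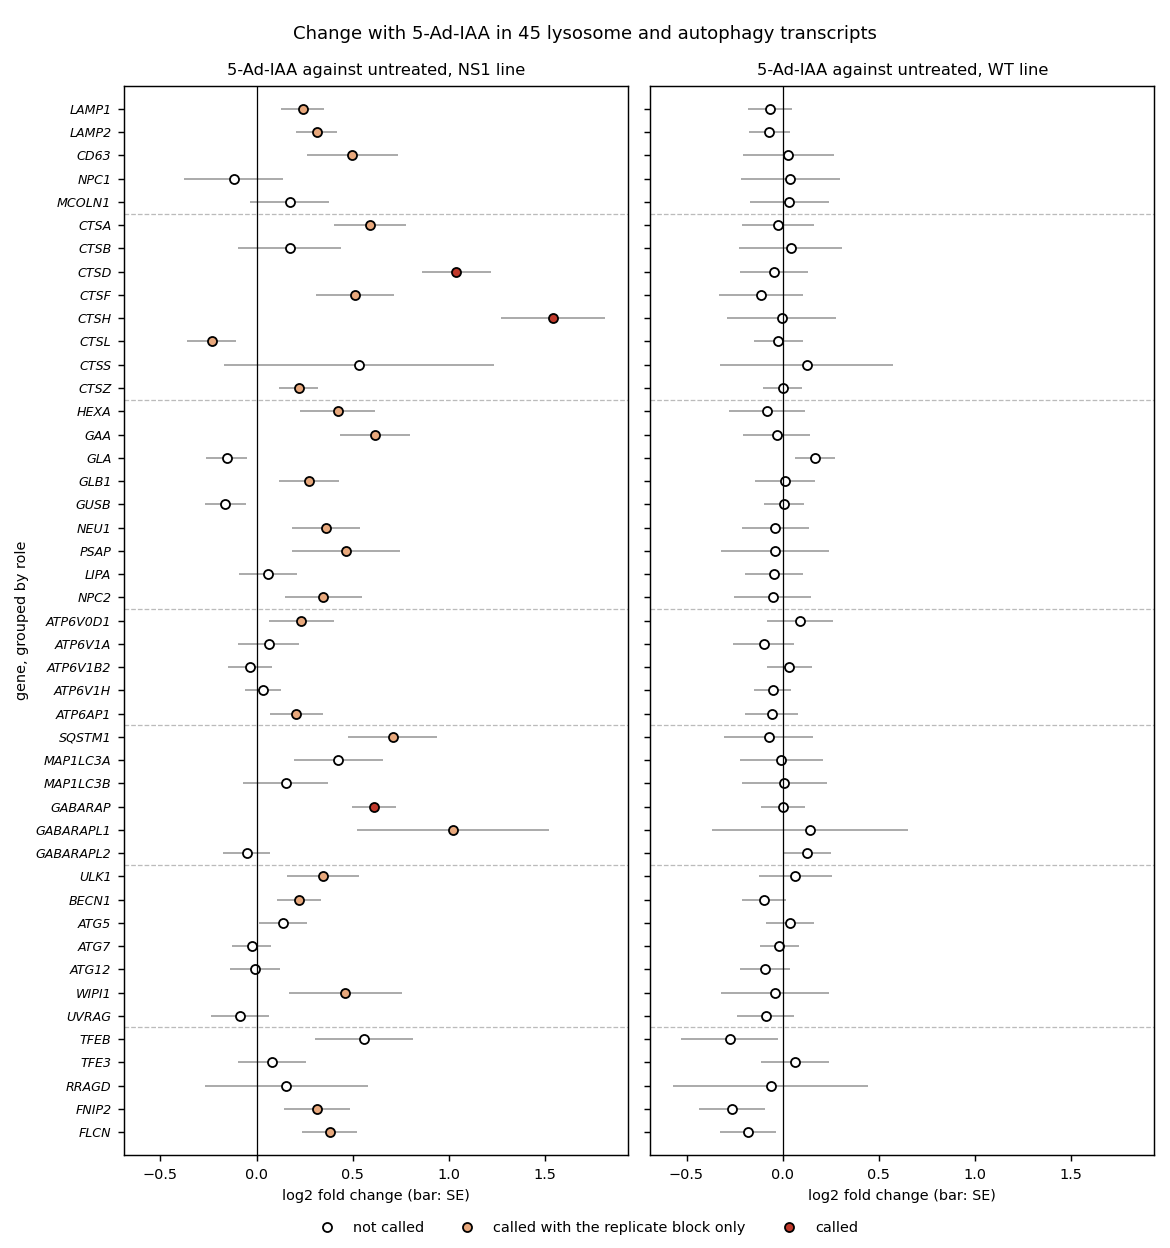
Log2 fold change of 5-Ad-IAA against no treatment (horizontal axes, bars SE) for 45 members grouped by role, in NS1 cells on the left and WT cells on the right. In NS1 cells 36 of 45 points lie above 0, with CTSH at 1.54, whereas the points in WT cells lie between -0.28 and 0.17.

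Members with and without the E-box were called. In the NS1 comparison, the 9 members with CACGTG in the promoter window had a median log2 fold change of 0.50 (range 0.17 to 1.04) and 8 of them were called with the block. The 25 members with a window but no CACGTG had a median of 0.22 (range -0.23 to 1.54) and 14 were called, 13 higher and CTSL lower. The 5 members with the longer TCACGTGA had a median of 0.24 (range 0.17 to 0.62), close to that of members without CACGTG, and 4 were called. Of all genes tested, 25.9% were called in this fit. The difference between these sets was not tested.

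Fibroblast markers, a list of 7 genes, also moved with the treated NS1 group: their summed level was 8.42 to 21.8 CPM there and 2.53 to 7.73 CPM in the other 3 groups. PDGFRB made up most of it (11.8 CPM on average, against 1.94 to 2.31), DCN was at 0 in every library, and 5 of the 7 had at most 3 counts in every library. PDGFRB was called without the block (2.38, adjusted p = 0.0374). The 4 endothelial markers summed to 1.35 to 4.07 CPM in treated and 0.0617 to 1.09 CPM in untreated NS1 cells, and to 0.720 to 3.37 CPM in WT cells. Of these, PECAM1 was called (3.19, adjusted p = 0.0251, 0.206 CPM untreated and 1.93 treated). It held only 1, 5 and 2 counts in the untreated NS1 libraries, so the size of this change rests on few reads. KDR was at most 1 count in any library. Of the epithelial and urothelial markers only GATA3, a urothelial transcription factor, was called without the block (1.34, adjusted p = 0.0281, 30.9 CPM untreated and 78.2 treated). The list summed to 4054 to 7591 CPM in untreated and 5096 to 11084 CPM in treated NS1 cells. With the block, KRT7, KRT8, KRT17 and KRT19 were also called higher (adjusted p = 0.00093, 0.0010, 4.3e-08 and 0.00089). KRT17 was at 6.27 CPM untreated and 33.6 treated. KRT18, EPCAM and UPK2 were not called. COL1A1 of the fibroblast list was called higher with the block (adjusted p = 0.0041). In that fit 13.0% of all genes were called higher. The part of these markers in the member results was not tested.

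In WT cells 5-Ad-IAA changed no member detectably, without or with the block, and the background was 0.0% (0 of 17775 genes called, 94 with an unadjusted p under 0.05, and 0 by DESeq2). Member log2 fold changes ran from -0.28 (TFEB) to 0.17 (GLA), with a median of -0.025, and no member had an unadjusted p under 0.05 without the block. The libraries without and with 5-Ad-IAA did not overlap for 2 members (GLA and ATG5, both higher, 4.44%, background 1.68% higher, 1.73% lower and 3.41% in all). In NS1 cells the libraries did not overlap for 15 higher members (33.3%, background 13.2%) and 1 lower member, GUSB (2.22%, background 14.0%), where 27.2% of all genes did not overlap. All 3 pairs in WT cells were higher for 4 members (8.89%, background 9.3%) and lower for 5 (11.1%, background 9.27%).

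Whether the response differed between the lines was tested by the interaction. No member was called without the block, where 0.0225% of all genes were called (0.0113% in each direction), 10 members had an unadjusted p under 0.05, and DESeq2 called 3. With the block, 17 of 45 members were called, all with a larger response in NS1 cells (37.8%, background 6.98% higher, 7.06% lower and 14.0% in either direction). They were LAMP2, CD63, CTSA, CTSD, CTSF, CTSH, HEXA, GAA, NEU1, PSAP, NPC2, SQSTM1, GABARAP, GABARAPL1, WIPI1, FNIP2 and FLCN. The difference in response was 1.09 for CTSD (adjusted p = 0.0875, 2.67e-05 with the block), 1.55 for CTSH (0.104, 7.14e-05) and 0.61 for GABARAP (0.121, 0.00437). Without replicate 1 the block called 2 members (4.44%, against 2.36% of all genes).

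The lines also differed without inducer. These comparisons share libraries with the inducer comparisons, so their values are not independent of those above. Without 5-Ad-IAA, 4 of 45 members were called (8.89%, background 12.5%). RRAGD was higher in NS1 cells (2.22%, background 5.45%), and CTSS, GLA and GAA were lower (6.67%, background 7.05%). RRAGD, a Rag GTPase through which mTORC1 acts on TFEB, had 1.17, 5.41 and 5.22 CPM in WT and 16.3, 11.7 and 14.2 CPM in NS1 cells, with no overlap (log2 fold change 1.92, SE 0.47, adjusted p = 0.0188). It was called in 4 of 6 fits that left out 1 of these libraries. CTSS, a cysteine protease of antigen-presenting cells, had 2.72, 7.51 and 5.99 CPM in WT and 0.370, 0.436 and 1.25 CPM in NS1 cells (-3.04, SE 0.58, adjusted p = 0.00538). CTSS held only 6, 6 and 13 counts in those NS1 libraries, so the size of this difference rests on few reads. Its WT libraries, where it is higher, were enough for it to pass the count filter.

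GLA, alpha-galactosidase, on the X chromosome, had 37.6, 32.7 and 37.5 CPM in WT and 24.3, 26.3 and 26.4 CPM in NS1 cells (-0.48, SE 0.11, adjusted p = 0.0107). GAA had 10.6, 9.01 and 11.7 CPM in WT and 5.49, 8.43 and 6.64 CPM in NS1 cells (-0.61, SE 0.18, adjusted p = 0.0443). GAA was called in 2 of 6 fits that left out a library. None of the 4 genes overlapped between the lines. Over all members, 5 higher (11.1%, background 14.8%) and 9 lower (20%, background 16.2%) did not overlap, against 31.0% of all genes. Without replicate 1 edgeR called 11 members in this comparison (24.4%, against 19.6% of all genes). Without replicate 2 or 3 it called 0, with 8 and 6 members at an unadjusted p under 0.05, against 1.13% and 1.00% of all genes called.

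**Figure D3:**
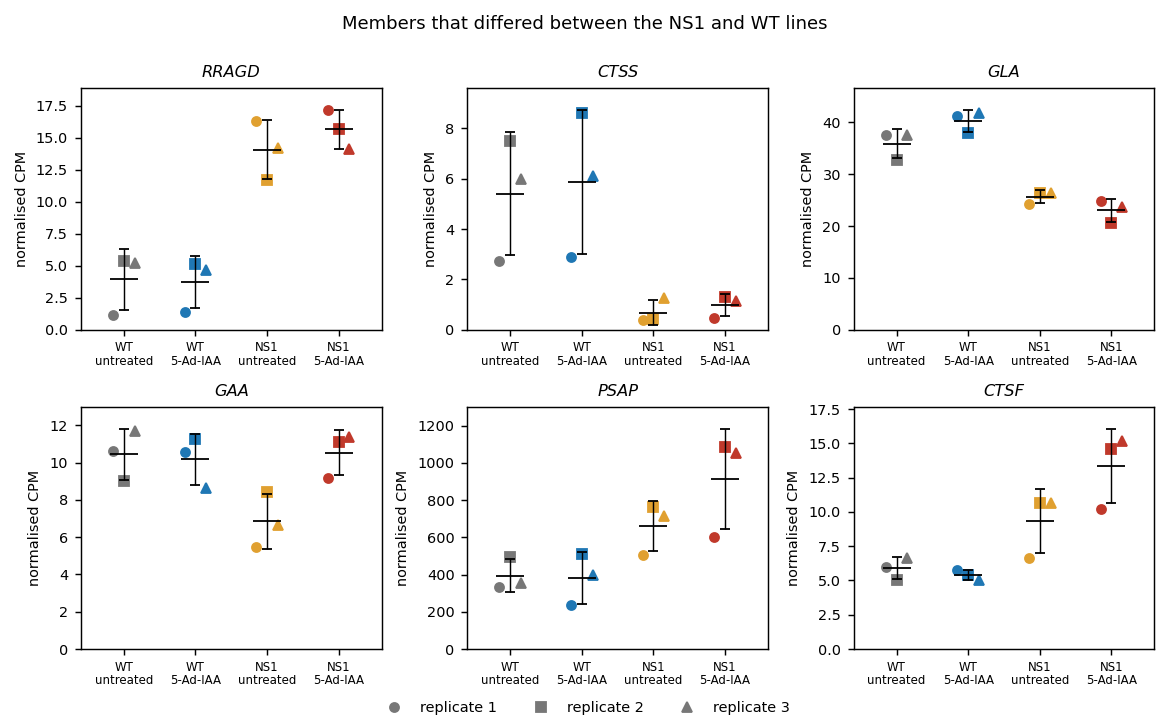
Normalised CPM (vertical axes, linear from 0) of 6 members that differed between the lines, in each of the 12 libraries, with the group mean as a bar and the SD as a whisker. RRAGD is higher, and CTSS and GLA are lower, in NS1 cells with or without 5-Ad-IAA. PSAP and CTSF were called higher in NS1 cells with 5-Ad-IAA and were not called without it.

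With 5-Ad-IAA in both lines, 18 of 45 members were called (40.0%, background 28.2%), 15 of them higher in NS1 cells (33.3%, background 13.6%) and 3 lower (6.67%, background 14.5%). The higher ones were LAMP1 and LAMP2, CTSA, CTSD, CTSF and CTSH, HEXA, GLB1, PSAP and NPC2, ATP6V1H, SQSTM1, GABARAP, RRAGD and FLCN. CTSS, GLA and GUSB were lower. Of the 6 fits that left out 1 library, GABARAP and NPC2 were called in 1, GLB1 in 2, LAMP2 and CTSA in 3, and ATP6V1H and GUSB in 4. The other 11 were called in all 6. The largest differences were CTSS (-2.63), RRAGD (2.13), CTSH (1.90), CTSD (1.37), CTSF (1.28) and PSAP (1.26), with adjusted p-values of 0.00316, 0.00456, 0.000294, 0.00016, 0.000688 and 0.00546. RRAGD had 1.38, 5.12 and 4.68 CPM in treated WT and 17.2, 15.7 and 14.1 CPM in treated NS1 cells. CTSS had 2.90, 8.60 and 6.12 CPM against 0.468, 1.31 and 1.16 CPM. The lines did not overlap for either gene. PSAP had 237, 513 and 396 CPM in treated WT and 602, 1084 and 1051 CPM in treated NS1 cells, and CTSF had 5.79, 5.42 and 5.04 CPM against 10.2, 14.6 and 15.2 CPM, with no overlap for either. The difference in response to 5-Ad-IAA between the lines was 0.51 for PSAP and 0.63 for CTSF. It was smaller than their differences between treated lines. GAA, lower in untreated NS1 cells, was at 0.041 here. The lines did not overlap for 18 higher members (40.0%, background 21.2%) and 5 lower ones (11.1%, background 22.2%), against 43.4% of all genes. Without replicate 2 edgeR called 7 members (15.6%, against 9.03% of all genes) and without replicate 3 it called 5 (11.1%, against 11.7%).

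RRAGD and CTSS were called between the lines without and with 5-Ad-IAA, and neither was called for the inducer in NS1 cells (RRAGD 0.15, SE 0.42, and CTSS 0.53, SE 0.70). CTSD and CTSH did not differ detectably between untreated lines (0.28, SE 0.18, and 0.35, SE 0.28) and were called between treated lines.

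**Figure D4:**
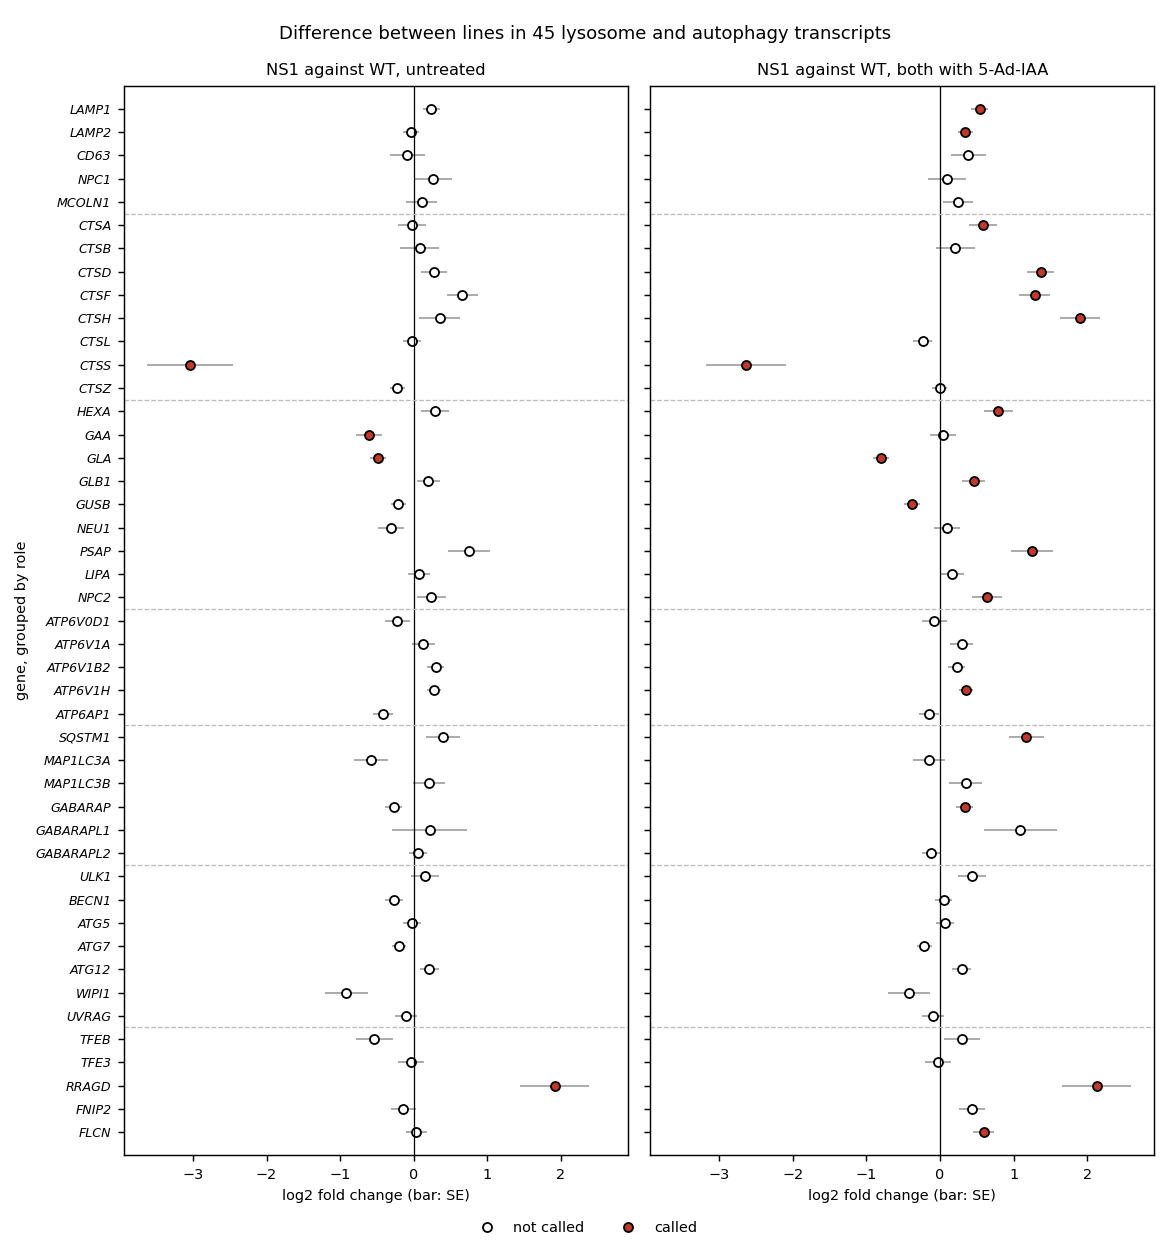
Log2 fold change of NS1 against WT (horizontal axes, bars SE) for 45 members grouped by role, without 5-Ad-IAA on the left and with it in both lines on the right. Filled points are called; 4 are on the left and 18 on the right.

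A further 134 genes of the same pathways (hydrolases, lysosome membrane and trafficking, V-ATPase subunits, autophagy, and mTORC1 and nutrient sensing), of which 131 were tested, were examined in the same fits. In NS1 cells 10 of them were called with 5-Ad-IAA (7.63%, background 6.15%), 9 higher and 1 lower (background 2.76% and 3.39%). With the block 55 were called, 53 higher and 2 lower (40.5% and 1.53%, background 13.0% and 12.8%). A positive sign was seen for 104 of 131. By list, the block called higher 18 of 29 further hydrolases, 13 of 29 membrane and trafficking genes, 2 of 11 V-ATPase subunits, 12 of 37 autophagy genes and 8 of 25 mTORC1 and nutrient sensing genes, where 13.0% of all genes were called higher. The share of V-ATPase subunits was near that background. DEPTOR, an inhibitory subunit of mTORC1, had 14.6, 17.9 and 16.8 CPM in untreated and 40.7, 51.2 and 52.1 CPM in treated NS1 cells (log2 fold change 1.55, adjusted p = 0.00328). TP53INP1 and TP53INP2, which take part in autophagy, rose by 1.34 and 1.06 (adjusted p = 0.0114 and 0.0154). CTSC, a dipeptidyl peptidase, fell by 0.37 (adjusted p = 0.0361). In WT cells 0 of 131 were called (1 with an unadjusted p under 0.05, 0 by DESeq2). Without replicate 1 the inducer in NS1 cells gave 26 calls among the 131 (19.9%, against 11.4% of all genes), and without replicate 2 or 3 edgeR gave 0, with 18 and 22 at an unadjusted p under 0.05 and no call among all genes. In the interaction 0 were called without the block (20 at an unadjusted p under 0.05, 4 by DESeq2) and 36 with it (34 with the larger response in NS1 cells, 26.0%, background 6.98%).

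Between the untreated lines 16 of the 131 were called (12.2%, background 12.5%), 5 higher and 11 lower in NS1 cells (background 5.45% higher and 7.05% lower). DEPTOR was higher by 1.97 (adjusted p = 0.000364), RRAGB, another Rag GTPase, by 0.90 (0.0194) and ATP6V0E1, a V-ATPase subunit, by 0.63 (0.0102). LAMP3, a LAMP protein of dendritic cells, was at -2.38 (adjusted p = 0.00314), SESN2, a stress-induced inhibitor of mTORC1, at -0.91 (0.0337) and CALCOCO2, a receptor in selective autophagy, at -0.83 (0.00285). With 5-Ad-IAA in both lines 42 were called (32.1%, background 28.2%), 31 higher and 11 lower (background 13.6% higher and 14.5% lower). Without replicate 2 or 3 there were 17 and 15 calls (13.0% and 11.5%, against 9.03% and 11.7% of all genes), and between untreated lines 1 call each (0.763%, against 1.13% and 1.00%). The extremes were DEPTOR (3.50), GALC, a galactosylceramidase (2.43), and TP53INP1 (2.42), and on the lower side LAMP3 (-2.83), CTSC (-1.06) and SESN2 (-0.88). GALC was low in all groups, at 3.07 CPM or less and 4 to 9 counts in the WT libraries. It passed the count filter through the NS1 line, where it is higher. The filter thus favoured its call, which is no support for a difference between the lines.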

How the data were processed

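Per the submitters' processing notes, the tools were STAR 2.7.3a and featureCounts 1.6.4 and the build was hg38. The annotation and strand setting are not given in the sources used here. The authors deposited a table of raw read counts for each gene. Poly(A) RNA was sequenced with a NextSeq kit, per the labels' protocols.

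The counts were tested in R 4.3.3 with edgeR 4.0.16. Genes passing filterByExpr over the 4 groups (17775) were scaled by TMM and fitted with a quasi-likelihood model of all 12 libraries, 1 mean per group. The 5 comparisons were tested two-sided, with Benjamini-Hochberg adjustment over all genes and a threshold of 0.05. SE is the size of the log2 fold change divided by the square root of F. Same-numbered libraries deviated together within a line (correlations over genes 0.713, 0.386 and 0.384 in NS1, 0.752, 0.385 and 0.256 in WT). Replicates 2 and 3 correlated with each other about as much (0.371 and 0.278 in NS1, 0.367 and 0.248 in WT), so mainly replicate 1 is set apart. Since every same-number correlation was over 0.1, a fit with a replicate block within each line stands beside the inducer results. Between lines they were 0.136, 0.0719 and 0.191 untreated and 0.153, 0.121 and 0.006 treated. Values in each library are given for members called in a comparison (up to 12 with the inducer, the 6 largest between lines), and up to 3 further pathway genes are named in each direction. Levels per kilobase use exon lengths of GENCODE 29. In simulated data (17610 genes), 65% of 2-fold and 92% of 4-fold changes were recovered for the inducer effect in NS1. For the interaction 32% and 76% were recovered. The simulated libraries had no shift of replicate 1 and were fitted without the block, so these shares do not describe the paired fit. The members and lists were chosen with earlier results of these data known. DESeq2 1.42.0 and other settings were tried as alternatives.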

Additional observations from a re-analysis of the deposited data

How the results depend on the processing

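Of the values of single members under alternative settings, 1024 kept their side of the threshold, 80 lost it, 129 gained it and 0 changed direction. For the inducer in NS1 cells, members called were 6 with DESeq2, 10 without a low-count filter, 15 with a plain replicate block, 25 with the replicate block within each line, 18 with that block and library totals and 10 with it but without replicate 1. Pathway genes called were 17 with DESeq2 and 31, 55, 47 and 24 with those blocks. For the interaction, the same settings gave 3 members with DESeq2, 4 without the filter, and 7, 17, 14 and 2 with the blocks, and 4, 4, 8, 36, 31 and 4 pathway genes. The share of all genes called also moved with the setting. For the inducer in NS1 cells it was 6.15% without a block and 25.9% with the block within each line. For the interaction it was 0.0225% and 14.0%. The other counts in this paragraph stand without that share, so they do not set the members apart from other genes. Library totals shifted the median of all genes to -0.054 in NS1 cells. Between untreated lines, members called were 8 with DESeq2, 8 without the filter and 14 with the replicate block, and pathway genes 33 with the block. Here the numbers paired the libraries only weakly. Correlations were 0.136, 0.0719 and 0.191 for the same number and -0.1475 to -0.01862 for different numbers.

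Leaving out replicates, members called ranged from 0 to 10 for the inducer in NS1 cells, 0 to 3 for the interaction, 0 to 11 between untreated lines and 5 to 22 between treated lines, and pathway genes from 0 to 26, 0 to 5, 1 to 27 and 15 to 55. In each the highest was without replicate 1 and the lowest without replicate 2 or 3. These ranges are given without the share of all genes called, so they do not set the members apart from other genes. The cause was not tested. In WT cells, 0 were called in every setting run. The alternatives combining the block with library totals or with leaving out replicate 1 were added after seeing the data. Depth limits CTSK, which could not be tested at 3 counts or fewer in every library, and CTSS and GALC, which had few counts in 1 line. It also limits the marker PECAM1, which had few counts in untreated NS1 cells.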
